A study of Mus musculus with 6 samples.

Results

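The oxidative phosphorylation machinery was followed through 42 genes: 29 nuclear genes for subunits of complexes I to V and the 13 protein genes of the mitochondrial genome. They were taken from the deposited gene table of 55401 rows by matching each Ensembl identifier to a listed symbol. The list was set by gene name, and it was chosen with earlier results of these data known. All 42 were found and all 42 passed the filter on low counts, among 15959 genes tested. The nuclear members were listed as 11 genes of complex I, Ndufa4 among them, 4 of complex II, 5 of complex III, 5 of complex IV and 4 of complex V.

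The study measured RNA in bone marrow-derived macrophages (BMDMs) of C57BL/6 mice, which are primary macrophages grown from marrow cells. In 3 libraries, called siNC 1 to 3, the cells had been transfected with a negative control siRNA. In the other 3, called siPiezo1 1 to 3, they had received an siRNA against Piezo1, a cation channel opened by membrane tension, and the study asked how Piezo1 bears on macrophage proliferation under mechanical load. Cells of both groups were stretched for 4 h, so every value is from stretched cells; unstretched cells were not analysed here. The age and sex of the mice, the number of animals and the cultures behind each library are not stated in the sources used here. The p-values therefore measure the spread among these libraries alone, and part of that spread may be technical.

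Oxidative phosphorylation couples electron transfer along complexes I to IV of the mitochondrial inner membrane to the pumping of protons, whose return through complex V, the ATP synthase, drives ATP production. Complexes I, III, IV and V combine subunits made from nuclear genes with a few made inside the organelle from the mitochondrial genome, while complex II is wholly nuclear and doubles as an enzyme of the tricarboxylic acid (TCA) cycle. The mitochondrial genome is transcribed as long precursors that are cut into single messages, and pieces of it have been copied into nuclear chromosomes during evolution. In macrophages this machinery is known for its part in alternative activation, and its complexes I and II for reactive oxygen production during inflammatory activation.

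The nuclear copies matter for reading the mitochondrial rows, so the sequences come first. A block on chromosome 1 holds annotated copies of 7 of the 13 mitochondrial members. The sequences below were read from the GENCODE M21 transcripts and are shown because they carry either the single letter by which gene and copy differ or a stretch without any difference. mt-Nd3, a complex I subunit gene, and its copy Gm28438 matched at 99.71% over 345 of 348 bases; bases 1 to 23 of the mt-Nd3 transcript are given, with the differing base (T3C, counted from 1 at the transcript's 5′ end, mitochondrial base first) in capitals.
mt-Nd3: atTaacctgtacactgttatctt
Gm28438: atCaacctgtacactgttatctt
mt-Co1, the catalytic subunit of complex IV, and Gm29216 matched at 99.8% over 483 of 1545 bases; bases 1063 to 1086 are given, with A1066T in capitals.
mt-Co1: ggaAttgttttatccaactcatcc
Gm29216: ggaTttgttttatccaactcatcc
mt-Co2, which takes electrons from cytochrome c into complex IV, and Gm28661 had no difference over 681 of 684 bases, and mt-Atp6, the proton channel subunit of complex V, and Gm10925 none over 678 of 681. Bases 311 to 370 of mt-Co2 and bases 310 to 369 of mt-Atp6 are given, each the same in gene and copy, with no capitals.
mt-Co2 and Gm28661: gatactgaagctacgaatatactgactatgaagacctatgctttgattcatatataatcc
mt-Atp6 and Gm10925: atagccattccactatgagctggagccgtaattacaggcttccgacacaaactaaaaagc
A fragment from a stretch without any difference has the same letters whichever place it came from. How such fragments were shared between the rows is not stated in any source used here.

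Libraries held 61086684 to 75052745 estimated counts, which at 3.61 to 3.73 counts per fragment stood for 16.4 M to 20.2 M fragments. Values below are CPM, counts scaled to a common library total, after scaling of library sizes by edgeR's trimmed mean of M-values (TMM). Piezo1 was at 179.7, 285.0 and 189.0 CPM in siNC 1, 2 and 3 and at 110.8, 109.3 and 113.1 CPM in siPiezo1 1, 2 and 3, a log2 fold change of -0.97 ± 0.18 (SE; edgeR quasi-likelihood test, Benjamini-Hochberg adjusted p = 0.744, DESeq2 adjusted p = 0.000982), and one of -0.73 ± 0.06 without siNC 2 (edgeR adjusted p = 0.00245). All 10 macrophage markers looked for were detected, and their summed level was 28243 to 35522 CPM in siNC and 34725 to 37578 CPM in siPiezo1. siNC 2 stood apart in several markers. There the summed level of 14 neutrophil markers was 4367 CPM, against 778 and 836 CPM in siNC 1 and 3 and 816 to 947 CPM in siPiezo1. All 7 lymphocyte markers were under 1 CPM in every library and 3 of them, Cd3e, Cd3g and Ncr1, were at 0, and the summed level of 7 dendritic cell markers was 0.553 to 2.91 CPM. The 8 stromal markers summed to 25.6 CPM in siNC 2 against 9.42 to 17.2 CPM elsewhere. The 6 erythroid markers summed to 0.120 CPM in siNC 3 against 8.69 to 11.9 CPM in the other 5 libraries. Results that rest on siNC 2 are therefore given with and without it.

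No member passed the threshold in edgeR. The quasi-likelihood test of edgeR, with p-values adjusted by Benjamini-Hochberg, called 0 of the 42 members at an adjusted p of 0.05, where the background was 0.00627% of the genes tested, a single gene, 1600014C10Rik (log2 fold change -1.50 ± 0.10, adjusted p = 0.0424), named here after its value was seen. At an unadjusted p of 0.05, 3 members passed, Cox4i1 with a higher siPiezo1 mean (background 2.52%) and Ndufb5 and mt-Nd6 with a lower one (background 2.41%), against 4.93% of all genes in either direction. limma-voom also called 0 members (background 0.00627%), and DESeq2 called 1, Cox4i1, which it had as higher (background 0.551%, or 0.288% for higher calls). Without siNC 2, edgeR called 180 genes (background 1.09%) and again 0 members in either direction (background 0.645% higher and 0.45% lower), with 5 members at an unadjusted p of 0.05 against 14.3% of all genes. In bulk RNA such as this, fewer cells of a type and less RNA per cell cannot be told apart.

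Most nuclear members had narrow intervals, while other nuclear lists varied. For 28 of the 29 nuclear members the 95% interval of the log2 fold change lay within 0.5 of 0, which was true of 4 of the 13 mitochondrial members and of 34.2% of all genes tested. In other nuclear lists the share was 84% for other subunits of complexes I to V, 83.3% for the TCA cycle, 80% for the cytosolic ribosome and 78.9% for mitochondrial RNA processing. It was 77.8% for mitochondrial import and 74.4% for the mitochondrial ribosome. Lower shares were found for nuclear regulators of mitochondrial genes (50%) and for mitochondrial DNA maintenance and transcription (47.1%). Glycolysis (38.9%) and assembly factors (37.2%) were near the share of all genes. Interval width can depend on a gene's level, and neither the lists nor the background were matched for level. The nuclear members other than Cox4i1 had log2 fold changes of -0.23 to 0.19, and their highest library was 1.11 to 1.52 times their lowest. The median log2 fold change was 0.03 over the nuclear members, 17 of them above 0 and 12 below, -0.11 over the mitochondrial members, 2 above and 11 below, and -0.01 over all genes. The mitochondrial median depended on single libraries: it was -0.28 without siNC 3, -0.22 without siPiezo1 3, -0.03 without siPiezo1 1 and 0.01 without siNC 2. The summed level of the 29 nuclear members was 3755, 3761 and 3748 CPM in siNC 1, 2 and 3 and 3894, 3721 and 3998 CPM in siPiezo1 1, 2 and 3, so the groups overlapped.

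**Figure D1:**
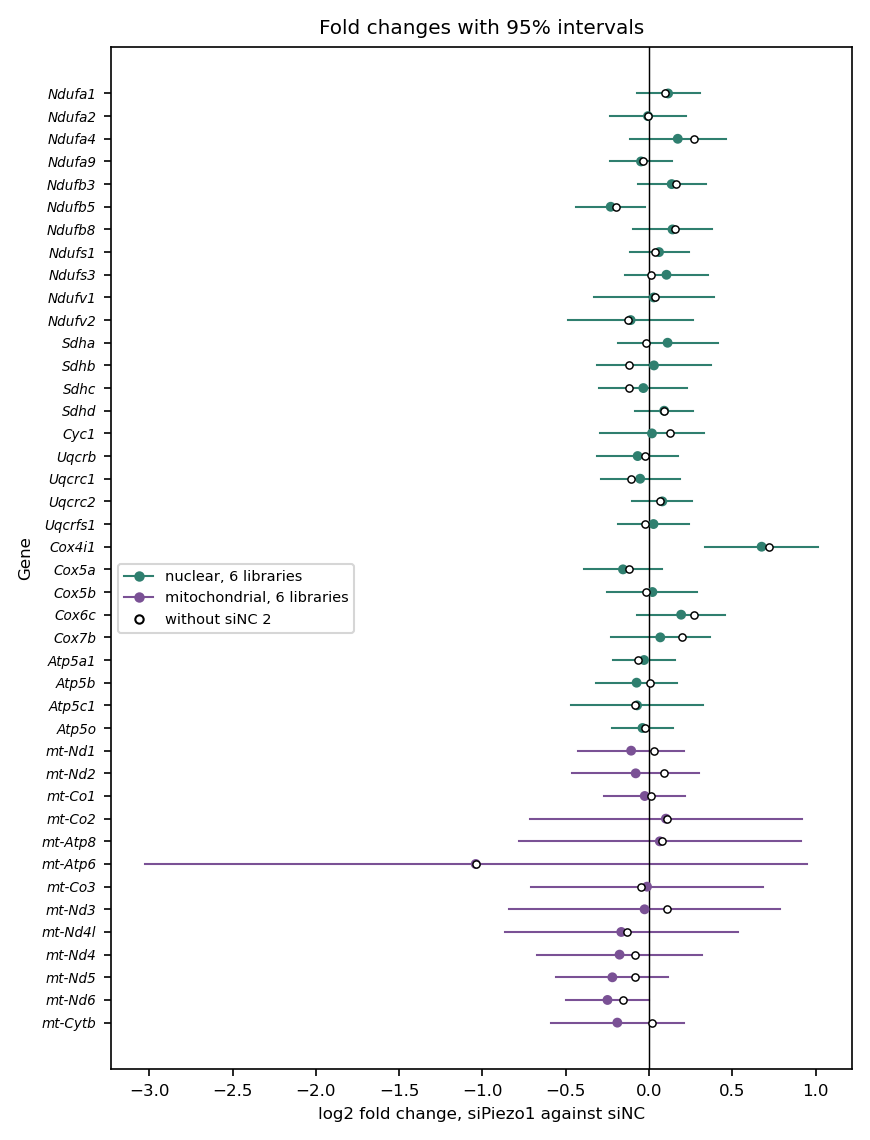
Log2 fold change of siPiezo1 against siNC for each member (x axis), with edgeR's 95% interval as a line, grouped by complex (y axis). Nuclear members lie close to 0 with short intervals except Cox4i1 at 0.68, and the mitochondrial members have longer ones, the longest for mt-Atp6, from -3.03 to 0.95.

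In 6 members the groups did not overlap, that is, every siPiezo1 library lay on the same side of every siNC library. This was 6 of 42 members, or 14.3%, against 11.9% of all genes tested. Cox4i1, Ndufa1, Ndufb3 and Sdhd were the members with higher siPiezo1 libraries (background 6.25%), and Ndufb5 and mt-Nd6 those with lower ones (background 5.65%). The share among the members was near that of all genes.

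**Figure D2:**
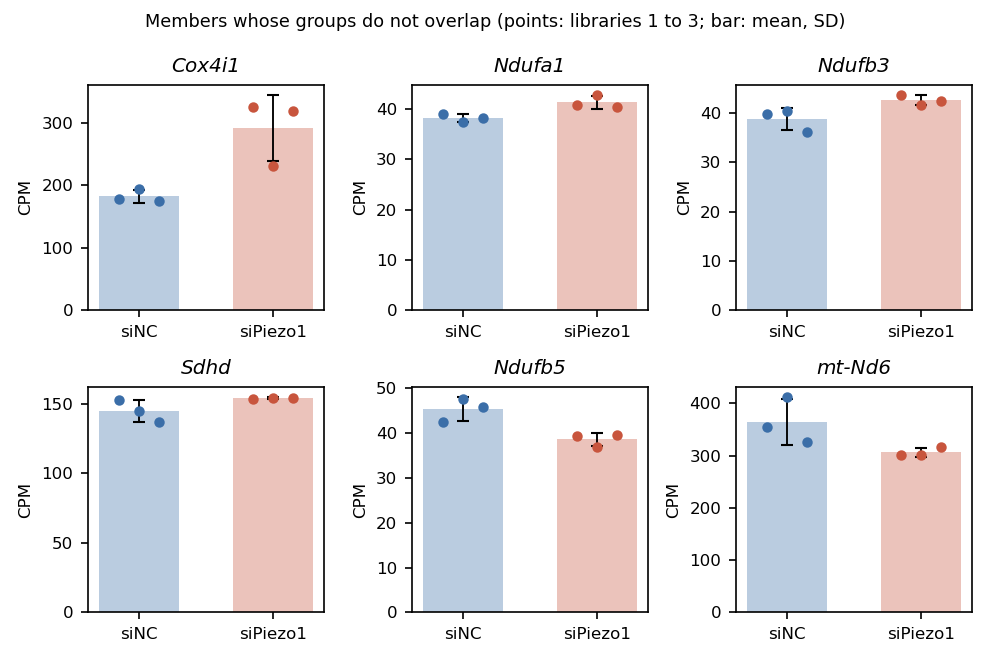
CPM (y axis, from 0) of the 6 members whose groups did not overlap, by group (x axis), with a point for each library and a bar for the mean and SD, n = 3. Cox4i1 shows the widest gap, from 194.5 CPM in the highest siNC library to 231.0 CPM in the lowest siPiezo1 library, and the other 5 have narrow gaps.

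Complex I oxidises NADH and hands the electrons to ubiquinone. Of the 11 nuclear members listed under it, Ndufa4 included, 0 passed the threshold. Their median log2 fold change was 0.06, with 7 above 0 and 4 below. Ndufb5, an accessory subunit of the membrane arm, was at 42.4, 47.6 and 45.9 CPM in siNC 1, 2 and 3 and at 39.3, 37.0 and 39.6 CPM in siPiezo1 1, 2 and 3. All 3 siPiezo1 libraries were below all 3 siNC libraries, with 2.79 CPM between the nearest libraries. Its log2 fold change was -0.23 ± 0.09 (edgeR, unadjusted p = 0.0355, Benjamini-Hochberg adjusted p = 0.978). An exact two-sided permutation test gave p = 0.1 for Ndufb5, the smallest that 3 against 3 libraries allow. Its exons share 616 bases (12.3%) with Mrpl47, a mitochondrial ribosome gene on the other strand that was at 12.3 to 16.5 CPM on library totals, and without known strand use in counting the reads of such a pair cannot be told apart.

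Ndufa1, a small accessory subunit encoded on the X chromosome, was at 38.9, 37.4 and 38.2 CPM in siNC against 40.8, 42.8 and 40.5 CPM in siPiezo1. Ndufb3, of the membrane arm, was at 39.7, 40.4 and 36.3 CPM in siNC against 43.6, 41.7 and 42.6 CPM in siPiezo1. Both had higher siPiezo1 libraries without overlap, and log2 fold changes of 0.11 ± 0.08 for Ndufa1 and 0.14 ± 0.09 for Ndufb3, neither past the threshold. Ndufa4, first described in complex I and now counted with complex IV, was at 51.9, 70.3 and 63.6 CPM in siNC against 70.0, 67.9 and 71.6 CPM in siPiezo1. There siNC 2 was within the siPiezo1 range and the other siNC libraries were below it, and the log2 fold change went from 0.17 ± 0.12 to 0.27 ± 0.10 without siNC 2.

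The core subunits carry the cofactors of complex I. Ndufs1, which holds iron-sulfur clusters, was at 93.7, 92.0 and 98.5 CPM in siNC against 99.2, 102.7 and 94.4 CPM in siPiezo1. Ndufv1, which binds NADH and flavin, ranged from 36.9 to 42.7 CPM in siNC and from 34.4 to 49.7 CPM in siPiezo1. Ndufv2, its iron-sulfur partner, ranged from 44.9 to 56.8 CPM in siNC and from 39.3 to 56.3 CPM in siPiezo1. All 3 overlapped between the groups. Ndufs3, a core subunit of the arm that faces the matrix, was at 40.1 CPM in siNC 2 and at 47.6 to 50.3 CPM in the other 5 libraries. Ndufa2, Ndufa9 and Ndufb8, accessory subunits, had log2 fold changes of -0.01, -0.05 and 0.14 with overlapping groups.

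Complex II, succinate dehydrogenase, passes electrons from succinate to ubiquinone and has 4 subunits, all members. None passed the threshold, but siNC 2 was the lowest of the 6 libraries for 3 of the 4. Sdha, the flavoprotein that oxidises succinate, was at 399, 297 and 391 CPM in siNC against 378, 401 and 395 CPM in siPiezo1. Sdhb, the iron-sulfur subunit, was at 116, 83.0 and 117 CPM in siNC against 115, 104 and 104 CPM in siPiezo1. Sdhc, a membrane anchor, was at 104, 94.6 and 123 CPM in siNC against 110, 101 and 103 CPM in siPiezo1. For Sdha and Sdhb siNC 2 was the outlying library and the other 5 lay close together. The summed level of the 4 was 771, 619 and 767 CPM in siNC and 756, 761 and 757 CPM in siPiezo1, and the Sdha log2 fold change was 0.11 ± 0.13 with all libraries and -0.02 ± 0.06 without siNC 2. In that library the neutrophil markers were 2.67 higher on the log2 scale than the mean of siNC 1 and 3 (median over the 14), complex II was 0.33 lower, and the part of those cells in the low complex II values was not tested. The fourth subunit gene, Sdhd, the other membrane anchor, was not low in siNC 2, with 152.3, 144.6 and 136.5 CPM in siNC and 153.4, 154.4 and 154.0 CPM in siPiezo1, for a log2 fold change of 0.09 ± 0.07.

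Complex III moves electrons from ubiquinol to cytochrome c. Its 5 nuclear members overlapped between the groups, with a median log2 fold change of 0.02. Uqcrc2, a core subunit, was the steadiest within siNC, at 108, 107 and 109 CPM, and was at 121, 108 and 114 CPM in siPiezo1. Uqcrc1, the other core subunit, was at 121, 119 and 145 CPM in siNC against 125, 118 and 128 CPM in siPiezo1. Cyc1, cytochrome c1, was at 78.8, 88.9 and 65.2 CPM in siNC against 85.5, 76.8 and 73.5 CPM in siPiezo1, with the whole siPiezo1 range inside that of siNC. Uqcrfs1, the Rieske iron-sulfur protein, ranged from 66.2 to 73.7 CPM in siNC and from 67.0 to 76.7 CPM in siPiezo1. Uqcrb, which helps bind ubiquinone, ranged from 61.9 to 73.5 CPM in siNC and from 61.7 to 71.5 CPM in siPiezo1; a copy, Gm2962, matched it at 98.2% over 336 bases and held 4.94 to 13.1 CPM.

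Complex IV reduces oxygen to water, and it held the nuclear member with the largest log2 fold change. Cox4i1, the common isoform of the regulatory subunit 4, was at 177.5, 194.5 and 175.1 CPM in siNC 1, 2 and 3 and at 324.5, 231.0 and 318.9 CPM in siPiezo1 1, 2 and 3. siPiezo1 1 and siPiezo1 3 lay highest, and siPiezo1 2 lay between them and the siNC libraries. The siNC mean was 182 ± 10.6 CPM and the siPiezo1 mean 291 ± 52.4 CPM (SD, n = 3), 160% of it. As a log2 fold change this was 0.68 ± 0.14 (95% interval 0.34 to 1.02). It did not pass edgeR's test (unadjusted p = 0.00234, Benjamini-Hochberg adjusted p = 0.744), passed DESeq2's (adjusted p = 0.0159), and its adjusted p ranged from 0.0159 to 0.9999 over the settings tried. The exact two-sided permutation p was 0.1, the smallest possible here. The log2 fold change stayed positive with each library left out, from 0.59 without siPiezo1 1 to 0.82 without siPiezo1 2, and was 0.72 ± 0.16 without siNC 2 (edgeR adjusted p = 0.140).

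Among the other complex IV members nothing similar was seen. Cox5a, a subunit on the matrix side, was at 102, 105 and 91.7 CPM in siNC against 80.7, 95.8 and 91.7 CPM in siPiezo1, for a log2 fold change of -0.16 ± 0.10. Cox5b, the zinc-binding subunit, was at 53.2, 47.2 and 49.2 CPM in siNC against 48.1, 57.7 and 45.9 CPM in siPiezo1. Cox6c, a small membrane subunit, was at 81.4, 94.5 and 80.3 CPM in siNC against 88.4, 96.0 and 108.5 CPM in siPiezo1, for a log2 fold change of 0.19 ± 0.11, or 0.27 ± 0.09 without siNC 2. Cox7b, encoded on the X chromosome, was at 94.5, 126.6 and 102.4 CPM in siNC against 121.4, 106.6 and 111.2 CPM in siPiezo1. For Cox6c and Cox7b siNC 2 was the highest of the siNC libraries. Cox4i1 and the opposite-strand gene Emc8 share 154 exon bases, 9.94% of those of Cox4i1; Emc8 was at 17.8 to 44.8 CPM in siNC and at 32.7 to 43.3 CPM in siPiezo1, on library totals, and the part of shared reads in the Cox4i1 values was not tested. A copy of Cox5b, Gm11273, matched it at 99.2% over 390 bases and held 8.76 to 14.4 CPM.

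Complex V, the ATP synthase, held the most abundant nuclear members. Atp5b, the catalytic beta subunit, was at 647, 758 and 632 CPM in siNC against 647, 613 and 674 CPM in siPiezo1. Atp5a1, the alpha subunit, was at 500, 481 and 533 CPM in siNC against 488, 490 and 506 CPM in siPiezo1. Atp5c1, the gamma subunit of the rotor, was at 195, 173 and 157 CPM in siNC against 180, 128 and 192 CPM in siPiezo1, with siPiezo1 2 lowest. Atp5o, a subunit of the stalk that holds the head in place, was at 110, 114 and 109 CPM in siNC against 104, 115 and 106 CPM in siPiezo1. All 4 overlapped between the groups, and their log2 fold changes were -0.07, -0.03, -0.07 and -0.04 in the same order.

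**Figure D3:**
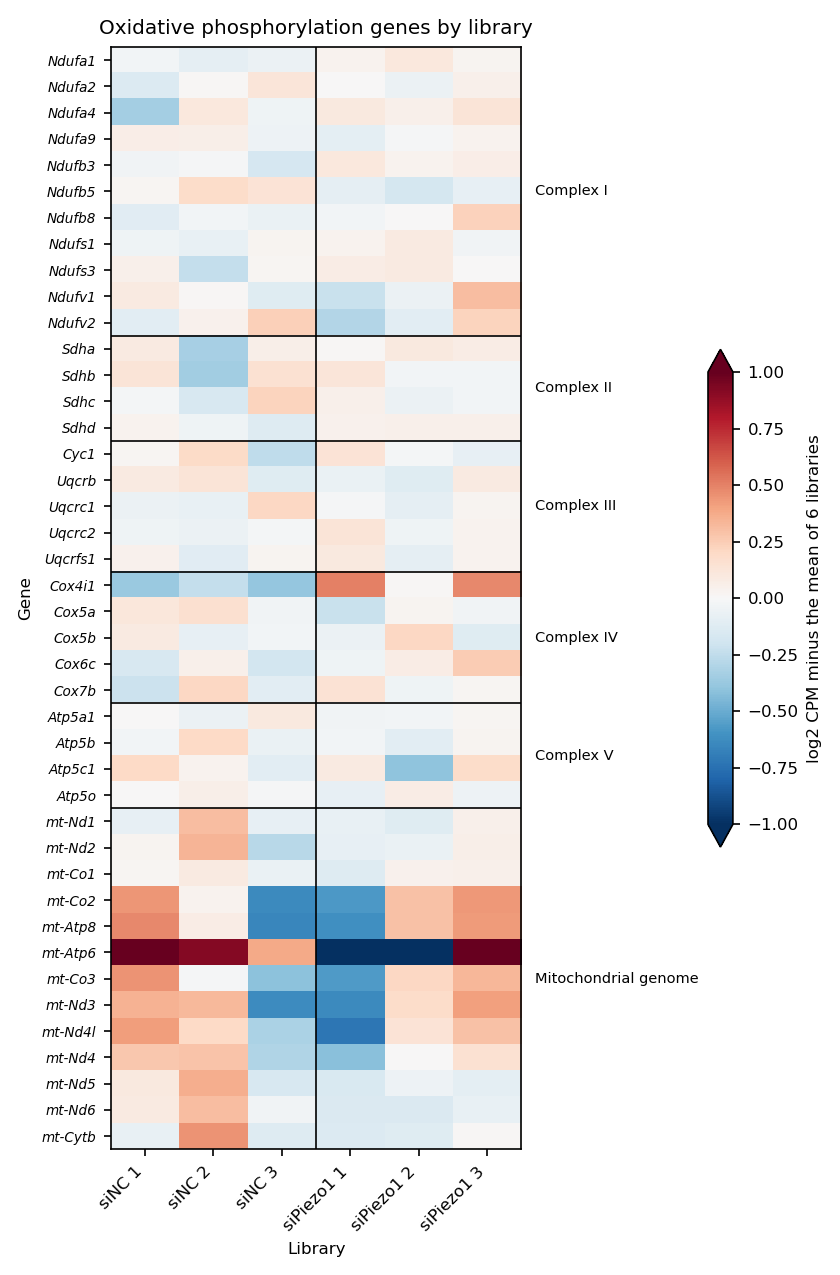
Log2 CPM of each member (rows) minus its mean over the 6 libraries, by library (columns), on a colour scale. The nuclear rows are pale except Cox4i1, the complex II genes Sdha, Sdhb and Sdhc are low in siNC 2, and the mitochondrial rows from mt-Co2 to mt-Nd4 are low together in siNC 3 and siPiezo1 1, apart from mt-Atp6, which is low in siPiezo1 1 and siPiezo1 2.

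Per kilobase of annotated exon, the 13 mitochondrial members were the 13 highest of the 42 by mean over the libraries. mt-Co1 stood first with a mean level of 8275 CPM per kb, followed by mt-Co2 at 3330, mt-Atp8 at 2293 and mt-Co3 at 1691. The lowest of them, mt-Nd3, had a mean of 252 CPM per kb. The highest nuclear means were 159 for Atp5a1, 156 for Atp5b and 153 for Cox4i1. By library the ranges of mt-Nd3 and these nuclear genes overlapped. They were 155 to 321 for mt-Nd3, 153 to 170 for Atp5a1, 145 to 179 for Atp5b and 113 to 209 for Cox4i1. Ndufb5 was the lowest member, at 8.40 CPM per kb. Nuclear levels per kb depend on the annotated exon length, which takes in every isoform, and the mitochondrial levels of genes with a copy depend on the split described next.

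**Figure D4:**
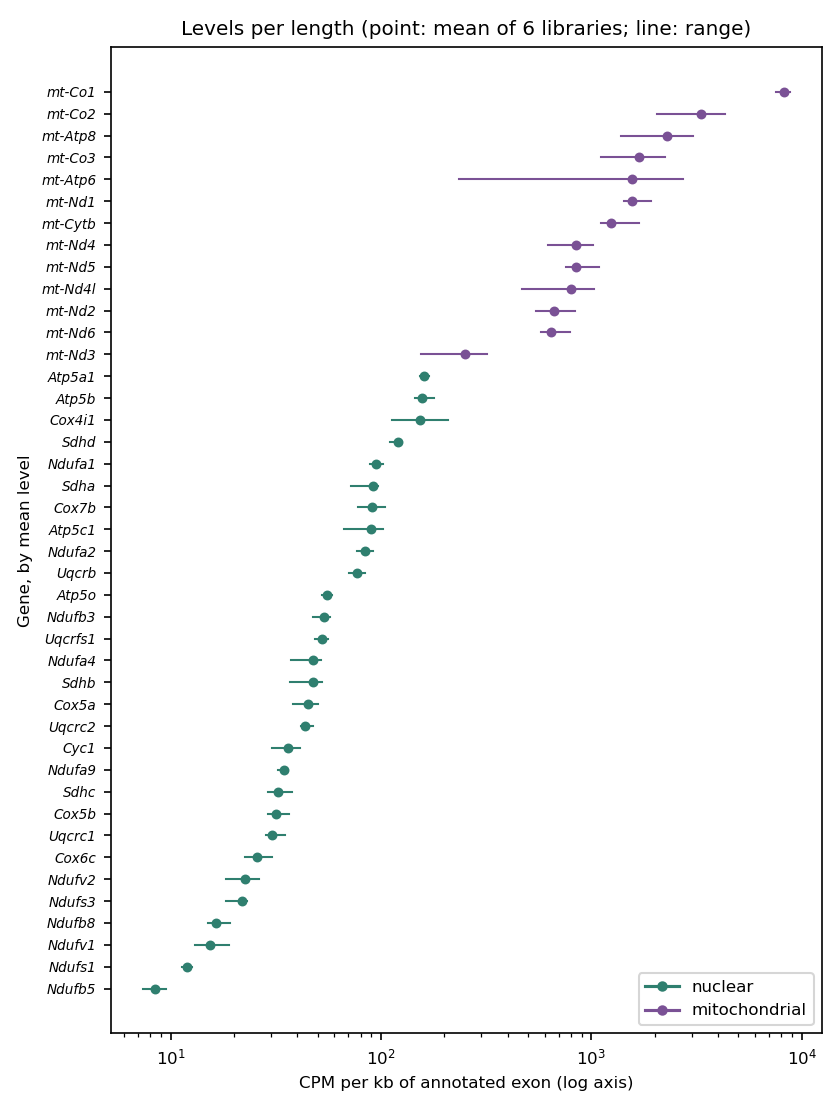
Mean level of each member in CPM per kb of annotated exon (x axis, log scale), ordered by level (y axis), with a line for the range over the 6 libraries. By mean level all 13 mitochondrial members lie above the 29 nuclear members, from 252 to 8275 CPM per kb. The range of mt-Nd3 overlaps those of the highest nuclear members.

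The 13 mitochondrial members together held 2.72%, 2.86% and 2.17% of the counts in siNC 1, 2 and 3 and 2.03%, 2.48% and 2.70% in siPiezo1 1, 2 and 3. The means were 2.58% ± 0.365 and 2.41% ± 0.343 (SD, n = 3), and the groups overlapped. Relative to the summed nuclear members, the mitochondrial sum was 7.29, 7.39 and 5.86 times as high in siNC and 5.28, 6.64 and 6.78 times as high in siPiezo1. The lowest library of each group, siNC 3 and siPiezo1 1, stood apart from its own replicates in both measures.

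These 2 libraries were low in a run of genes that lie next to each other. On the mitochondrial genome mt-Co2, mt-Atp8, mt-Atp6, mt-Co3, mt-Nd3, mt-Nd4l and mt-Nd4 follow in that order. mt-Co2 was at 2963, 2230 and 1400 CPM in siNC against 1462, 2671 and 2941 CPM in siPiezo1. mt-Atp8, the small membrane subunit of complex V, was at 620, 469 and 283 CPM in siNC against 290, 545 and 600 CPM in siPiezo1. mt-Co3, the third large subunit of complex IV, was at 1749, 1275 and 969 CPM in siNC against 869, 1479 and 1613 CPM in siPiezo1. In each of the 3 the lowest libraries were siNC 3 and siPiezo1 1, at about the same level, and the groups overlapped over their whole width. mt-Nd3 was at 107, 105 and 54.1 CPM in siNC against 54.0, 95.2 and 112 CPM in siPiezo1. mt-Nd4l, part of the proton-pumping membrane arm of complex I, was at 308, 265 and 185 CPM in siNC against 140, 253 and 282 CPM in siPiezo1. mt-Nd4, of the same arm, was at 1386, 1408 and 938 CPM in siNC against 863, 1156 and 1284 CPM in siPiezo1. Apart from mt-Atp6, the run therefore had the same 2 low libraries from mt-Co2 to mt-Nd4, 1 in each group.

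The chromosome 1 copies took an unequal share from library to library. Apart from mt-Atp6, the match spans nearly the whole gene in 4 pairs, those of mt-Co2, mt-Co3, mt-Nd3 and mt-Nd4l. Over these 4 the copy took 1.13% to 1.64% of the summed level of gene and copy in siNC 1. It took 41.97% to 42.8% in siNC 2, 46.0% to 46.9% in siNC 3, 48.1% to 50.0% in siPiezo1 1, 8.57% to 11.3% in siPiezo1 2 and 9.06% to 10.7% in siPiezo1 3. Within a library the 4 pairs thus had nearly the same split, and between libraries it differed, also between libraries of 1 group. The mt-Atp6 pair, matched over 678 of 681 bases, did not share this split in every library. Its copy took 1.73%, 40.1% and 48.8% in siNC 1, 2 and 3 and 85.1%, 42.5% and 11.5% in siPiezo1 1, 2 and 3. The summed level of the 7 copies was 165, 5460 and 4600 CPM in siNC and 4864, 1036 and 1132 CPM in siPiezo1.

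Adding each copy to its gene lowered the ratio of the highest library to the lowest, but the spread within siNC did not always shrink. There the SD rose from 29.9 to 44.7 CPM for mt-Nd3, from 62.4 to 76.5 CPM for mt-Nd4l and from 265 to 338 CPM for mt-Nd4. It fell from 782 to 649 CPM for mt-Co2 and from 393 to 252 CPM for mt-Co3. Within siPiezo1 it fell for each of these genes, for mt-Nd3 from 29.7 to 9.47 CPM and for mt-Nd4 from 216 to 73.2 CPM. The mt-Co2 sum was 3011, 3881 and 2612 CPM in siNC and 2915, 2921 and 3291 CPM in siPiezo1, and its highest library was 1.49 times its lowest, against 2.12 times for mt-Co2 alone. The mt-Co3 sum was 1778, 2229 and 1809 CPM in siNC and 1672, 1667 and 1805 CPM in siPiezo1, and its ratio of highest to lowest went from 2.01 to 1.34. For mt-Nd4l the ratio went from 2.20 to 1.64, for mt-Nd3 from 2.07 to 1.81 and for mt-Nd4, where the match covers 876 of 1378 bases, from 1.63 to 1.56. In the mt-Co2 and mt-Co3 sums siPiezo1 1 lay beside siPiezo1 2, and siNC 2 was the highest library. With sums in place of single rows the log2 fold changes were -0.06 ± 0.16 for mt-Co2, -0.18 ± 0.12 for mt-Co3, -0.21 ± 0.23 for mt-Nd3, -0.35 ± 0.15 for mt-Nd4l and -0.27 ± 0.16 for mt-Nd4, none past edgeR's threshold after Benjamini-Hochberg adjustment (all adjusted p at 0.979 or above). mt-Atp8 has no annotated copy here and no sum could be made, although its values follow those of mt-Co2 and mt-Co3.

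**Figure D5:**
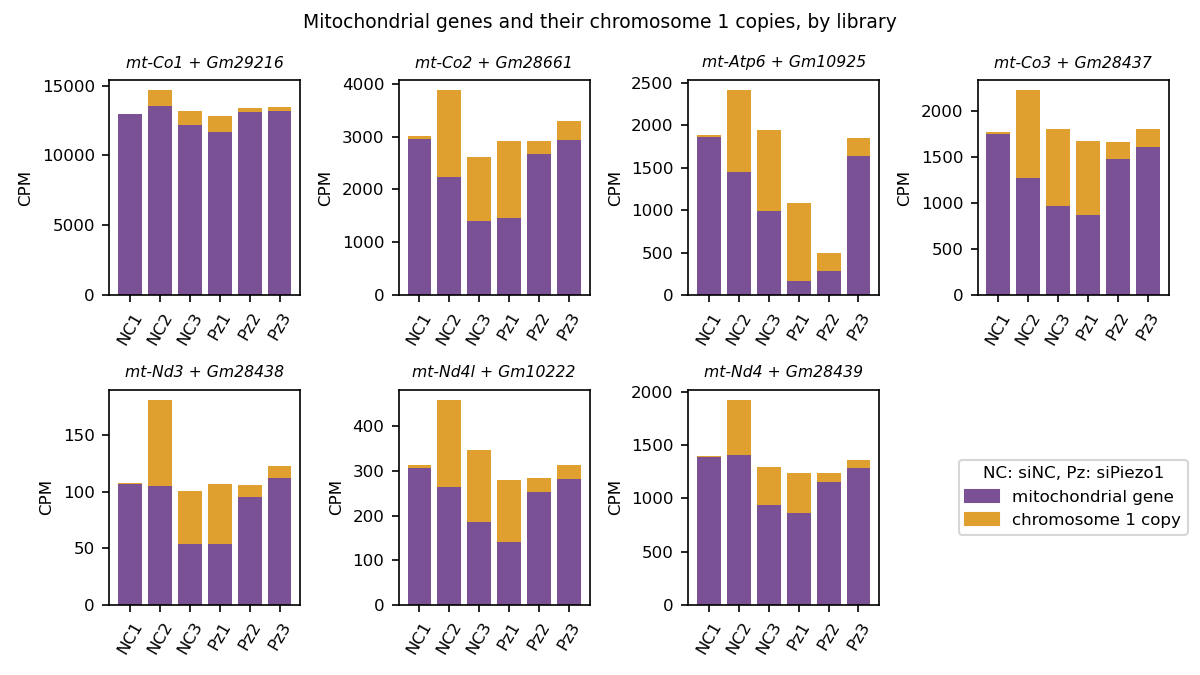
Stacked CPM (y axis, from 0) of each of 7 mitochondrial genes and its chromosome 1 copy, by library (x axis; NC is siNC, Pz is siPiezo1). The copies are thin in siNC 1 and thickest in siNC 2, siNC 3 and siPiezo1 1. The stacked totals have a lower ratio of highest to lowest library than the mitochondrial rows. The mt-Atp6 total still differs most, with its highest library 4.85 times its lowest against 11.6 times for the gene alone.

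mt-Atp6 was the exception within the run. It was at 1857, 1445 and 993 CPM in siNC against 161, 287 and 1642 CPM in siPiezo1. siPiezo1 1 and siPiezo1 2 were far below the rest, while siPiezo1 3 lay within the siNC range. Its log2 fold change was -1.04 ± 0.83, with an exact two-sided permutation p of 0.3 (smallest possible 0.1) and an edgeR adjusted p of 0.983. Adding Gm10925 left the same 2 libraries lowest, since the sum was 1890, 2414 and 1940 CPM in siNC and 1081, 498 and 1856 CPM in siPiezo1. The log2 fold change of the sum was -0.86 ± 0.43 (edgeR, unadjusted p = 0.0875, Benjamini-Hochberg adjusted p = 0.979).

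Its neighbours on both sides were not low in siPiezo1 2. They were low in siPiezo1 1, at 869 CPM for mt-Co3 and 290 CPM for mt-Atp8, but mt-Atp6 was lower still relative to them. The ratio of mt-Atp6 to mt-Co3 was 1.06, 1.13 and 1.03 in siNC, and 0.185, 0.194 and 1.02 in siPiezo1. The ratio of mt-Atp6 to mt-Atp8, which overlaps its start by 43 bases, was 3.00, 3.08 and 3.51 in siNC, and 0.553, 0.526 and 2.74 in siPiezo1. Both ratios put siPiezo1 1 and siPiezo1 2 together and siPiezo1 3 with siNC, although siPiezo1 1 and siPiezo1 2 differed in how much the copies took (48.1% to 50.0% against 8.57% to 11.3%). The copy Gm10925 took 85.1% and 42.5% of the mt-Atp6 sum in these 2 libraries, more than the copies of the other full-length pairs took there, and 11.5% in siPiezo1 3. As a ratio within a library this shows unequal levels of neighbouring rows, and its cause was not tested.

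The 5 mitochondrial members without a copy that lie outside the run were highest in siNC 2. mt-Nd1, a core complex I subunit next to the quinone site, was at 1404, 1840 and 1402 CPM in siNC against 1409, 1366 and 1539 CPM in siPiezo1. mt-Cytb, the cytochrome b of complex III, was at 1333, 1925 and 1289 CPM in siNC against 1276, 1293 and 1418 CPM in siPiezo1. mt-Nd2, of the complex I membrane arm, was at 701, 873 and 566 CPM in siNC against 649, 658 and 718 CPM in siPiezo1. For these 3, siNC 2 lay above the other 5 libraries, and the other siNC libraries lay among or below those of siPiezo1. mt-Nd5, the large subunit at the far end of that arm, was at 1648, 1982 and 1379 CPM in siNC against 1382, 1482 and 1438 CPM in siPiezo1, for a log2 fold change of -0.22 ± 0.14 that was -0.08 ± 0.08 without siNC 2. Without siNC 2 the log2 fold changes of mt-Nd1, mt-Nd2 and mt-Cytb were 0.03 ± 0.06, 0.09 ± 0.09 and 0.02 ± 0.06, against -0.11 ± 0.13, -0.08 ± 0.16 and -0.19 ± 0.17 with it.

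mt-Nd6 was the mitochondrial member whose groups did not overlap. It is the only protein gene of the other mitochondrial strand. It was at 355, 411 and 325 CPM in siNC against 301, 301 and 317 CPM in siPiezo1, for a log2 fold change of -0.25 ± 0.10 (edgeR, unadjusted p = 0.0489, Benjamini-Hochberg adjusted p = 0.978), and the exact two-sided permutation p was 0.1, the smallest possible. Without siNC 2 the log2 fold change was -0.15 ± 0.06 (edgeR adjusted p = 0.289). mt-Nd6 shares 14 bases with mt-Nd5 on the opposite strand.

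mt-Co1, the most abundant member, differed little between libraries. It was at 12957, 13567 and 12165 CPM in siNC against 11698, 13131 and 13194 CPM in siPiezo1, for a log2 fold change of -0.03 ± 0.10. Its copy Gm29216 covers less of it than the copies of the run do and took 0.260% to 8.74% of their sum.

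With copies summed, siNC 2 was the highest library for 12 of the 13 mitochondrial members. The level of the 13 members plus the 7 copies was 27551, 33254 and 26548 CPM in siNC and 25418, 25752 and 28229 CPM in siPiezo1. The median log2 fold change over the 13 members was -0.19 with copies summed and 0.01 with copies summed and siNC 2 left out. No other library was left out with copies summed, so whether this shift is particular to siNC 2 was not tested. Without siNC 2 the summed values ranged from -0.18 for mt-Nd4l to 0.11 for mt-Co2, apart from mt-Atp6 at -0.74. siNC 2 was also the library with the neutrophil markers at 4367 CPM and the macrophage markers at 28243 CPM, the lowest of the 6 libraries, and the part of these cells in the mitochondrial levels was not tested.

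The 2 mitochondrial ribosomal RNAs, which are not members, had the opposite position in siNC 2. Their summed level was 965, 697 and 913 CPM in siNC and 902, 970 and 921 CPM in siPiezo1. Since RNA was selected with oligo(dT), per the labels' protocols, their level depends on how much of them was carried through that selection.

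Other genes of the same machinery were taken from lists fixed by name. Among 50 other subunits of complexes I to V, 0 passed edgeR's threshold and the median log2 fold change was 0.03, the same as over the nuclear members. Their summed level was 2709 to 2839 CPM in siNC and 2806 to 2918 CPM in siPiezo1. The smallest p-values among them belonged to Atp5g1, a subunit of the rotor ring (log2 fold change -0.41 ± 0.12), Ndufb10 (0.27 ± 0.09) and Ndufs8 (-0.28 ± 0.11), of complex I, with unadjusted p of 0.0125, 0.0206 and 0.0360 and adjusted p of 0.961 or above by edgeR with Benjamini-Hochberg adjustment. Cycs, the mobile electron carrier cytochrome c, was at 104, 154 and 111 CPM in siNC against 109, 116 and 120 CPM in siPiezo1, again highest in siNC 2. Among 43 assembly factors, 0 passed, and the median was 0.01.

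Genes that act on the mitochondrial genome and its RNA gave 0 calls as well. Among 17 genes of its maintenance and transcription, the median was 0.07 and 12 were above 0. Top1mt, the mitochondrial DNA topoisomerase, was at 3.57 to 3.72 CPM in siNC and at 4.74 to 6.46 CPM in siPiezo1 (0.56 ± 0.21), and Polg2, the accessory subunit of the mitochondrial DNA polymerase, at 4.30 to 7.26 CPM and 8.48 to 9.35 CPM (0.54 ± 0.23). Among 19 genes of mitochondrial RNA processing and stability the median was -0.06. Slirp, which binds and stabilises mitochondrial messages, was at 23.9 to 28.4 CPM in siNC and at 29.2 to 37.4 CPM in siPiezo1 (0.35 ± 0.13). Tbrg4 was at 27.5 to 29.8 CPM in siNC and at 23.4 to 25.1 CPM in siPiezo1 (-0.23 ± 0.09). None of these passed the threshold after adjustment (edgeR, Benjamini-Hochberg adjusted p = 0.978 for each of the 4).

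Nuclear regulators of mitochondrial genes showed no call among 12 tested. Esrra, the oestrogen-related receptor alpha, was at 62.8, 59.9 and 59.8 CPM in siNC against 72.9, 69.3 and 69.1 CPM in siPiezo1 (a log2 difference of 0.21 ± 0.07). Nrf1, nuclear respiratory factor 1, was at 17.1, 19.1 and 14.8 CPM in siNC against 12.2, 13.03 and 14.1 CPM in siPiezo1 (-0.37 ± 0.14). Neither group pair overlapped, in opposite directions, and neither gene passed after adjustment (edgeR, Benjamini-Hochberg adjusted p = 0.978 for both).

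The consensus letters of the NRF1 motif were counted in the promoters of nuclear members. RefSeq windows on GRCm38.p6, from 250 bases before to 50 after the start, were found for 20 of the 29 nuclear members, 21 windows in all. The palindromic NRF1 consensus, read on either strand, was in 5 of the 21 (23.8%), those of Atp5c1, Atp5o, Sdha, Sdhd and Uqcrc1, against 4.60% of 32851 promoters. The members' windows had a median of 61% G and C against 52.7% for all. An ETS motif, CCGGAAG, was in 3 windows (14.3% against 8.86%), a YY1 motif, AAGATGGC, in 2 (9.52% against 2.75%), CCAAT in 7 (33.3% against 37.4%) and TATAAA in 0 (against 13.6%), each on either strand. The 5 members with the Nrf1 letters had log2 fold changes of -0.07, -0.04, 0.11, 0.09 and -0.05. A match of letters describes the window and is not a measured binding site.

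Neighbouring pathways of carbon and redox metabolism were compared with the same test. Among 18 genes of the TCA cycle 0 passed with all libraries, and the median was -0.02. Pcx, which makes oxaloacetate from pyruvate, was at 32.7, 38.2 and 30.0 CPM in siNC against 48.5, 42.4 and 51.0 CPM in siPiezo1 (a log2 difference of 0.49 ± 0.13, edgeR adjusted p = 0.871), and passed without siNC 2 (0.59 ± 0.10, adjusted p = 0.0444). Among 18 glycolysis genes the median was 0.17, 15 were above 0 and 0 passed. Without siNC 2 the median was 0.32. There 3 passed edgeR's test, Pdk1, Ldha and Pgam1, where the background of higher calls was 0.645% of all genes. Their log2 fold changes were 0.59, 0.52 and 0.41, with edgeR's Benjamini-Hochberg adjusted p at 0.0334, 0.0344 and 0.0375. Ldha, which turns pyruvate into lactate, was at 731, 1187 and 796 CPM in siNC against 1064, 1014 and 1224 CPM in siPiezo1, so its siNC 2 value lay inside the siPiezo1 range. Pgam1 was at 597, 913 and 570 CPM in siNC against 760, 728 and 834 CPM in siPiezo1, so its siNC 2 value lay above every siPiezo1 library. Pdk1 was at 58.5, 76.9 and 60.0 CPM in siNC against 85.3, 81.9 and 100.3 CPM in siPiezo1, without overlap. In the test without siNC 2 the macrophage markers Adgre1 and Fcgr1 were lower in siPiezo1, with log2 fold changes of -0.31 and -0.46 (edgeR adjusted p of 0.0375 and 0.0283). The 10 macrophage markers did not move as 1 set: with all libraries 4 were above 0 and 6 below. Lyz2 was at 24104, 20611 and 24955 CPM in siNC against 26811, 25587 and 26008 CPM in siPiezo1. Its log2 fold change was 0.17 ± 0.11 with all libraries and 0.09 ± 0.04 without siNC 2, neither past the threshold. Whether the glycolysis genes and the members differ in their response was not tested.

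Mitochondrial antioxidant and import genes also gave 0 calls with all libraries. Prdx5, a peroxiredoxin found in mitochondria, was at 516, 667 and 510 CPM in siNC against 748, 638 and 699 CPM in siPiezo1 (0.30 ± 0.13), and passed edgeR's test without siNC 2 (0.43 ± 0.07, adjusted p = 0.0365). Gpx4, which reduces lipid peroxides, was at 227, 208 and 226 CPM in siNC against 275, 256 and 259 CPM in siPiezo1 (0.26 ± 0.08, edgeR adjusted p = 0.967). Prdx3, the peroxiredoxin of the matrix, was at 47.8, 48.4 and 50.5 CPM in siNC against 38.0, 43.3 and 40.2 CPM in siPiezo1 (-0.27 ± 0.09, edgeR adjusted p = 0.978). In the import list of 18 genes, 16 were below 0 with a median of -0.08, which was -0.00 without siNC 2. Tomm20, the receptor for imported precursors, was at 141, 137 and 134 CPM in siNC against 116, 104 and 125 CPM in siPiezo1 (-0.26 ± 0.09, edgeR adjusted p = 0.978). The mitochondrial ribosome, 78 genes, had a median of -0.01 and the cytosolic ribosome, 80 genes tested, one of -0.00, each with 0 calls.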

How the data were processed

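Poly(A)-selected RNA of 6 libraries was sequenced as paired-end reads from dUTP-marked libraries, per the labels' protocols. The submitters' processing notes name cutadapt 1.9, HISAT2 2.0.4, StringTie 1.3.4d, DESeq2, edgeR and GRCm39; their roles, the annotation release, the strand setting and the handling of reads with several matches are not stated in the sources used. The authors deposited estimated counts per Ensembl gene, already whole numbers and not scaled between libraries; low values pile up at multiples of about 4, so a fragment was worth nearly 4 counts. Groups came from the sample titles, and 0 columns were unmapped.

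Symbols came from GENCODE M21 (55141 of 55401 identifiers matched; the rest held at most 0.00886% of a library), which was used for names, exon lengths, overlaps and transcripts only. Atp5o had 2 identifiers, of which 1 held 0 counts. The main test was edgeR 4.0.16 in R 4.3.3: filterByExpr, TMM factors, robust quasi-likelihood fit, group as the only term, all 6 libraries, Benjamini-Hochberg adjustment over 15959 genes, threshold 0.05. A standard error is the size of the log2 fold change over the square root of F. The alternatives were other scaling (DESeq2 size factors, library totals alone), mitochondrial rows left out, no filter, a floor of 50 counts in 3 libraries, the tests of DESeq2 1.42.0 and of limma-voom (limma 3.58.1), the replicate number as a block, counts divided by 4, and each library left out; summing copies was added after seeing the data. Copies were found with blastn 2.17.0 (at least 97% identity over 100 bases). Exact permutation tests of CPM, for 4 members, used scipy 1.17.1.

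All members are named. Of each other list the up to 3 genes with the smallest unadjusted p, and any gene past the threshold with all libraries or without siNC 2, could be named; a marker gene that met this rule is not reported here. The members and lists were chosen with earlier results of these data known. On simulated counts for the same 15959 genes, 3 against 3 libraries, the test called 0% of genes changed 1.5-fold, 26.9% of those changed 2-fold and 68.2% of those changed 4-fold.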

Additional observations from a re-analysis of the deposited data

How the results depend on the processing

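With 3 libraries a group, the main test called 0% of genes changed 1.5-fold in simulated counts for all 15959 genes. The power for the members alone was not tested. Their median SE was 0.10 over the nuclear members and 0.21 over the mitochondrial members, against 0.22 over all genes. An interval within 0.5 of 0 limits the size of a change. It was found for 28 of the 29 nuclear members and 4 of the 13 mitochondrial members. Of 701 values of single members under the alternatives, 651 kept their direction and side of the threshold, and 18 members never changed sign, Cox4i1, Ndufb5 and mt-Nd6 among them. DESeq2 called 1 member and 88 genes; library totals alone and the replicate block called 0 genes, and leaving out single libraries gave 0 to 184 genes, the 184 without siNC 2 and with copies summed (180 without siNC 2 alone). Deviations of same-numbered libraries correlated at 0.0296, -0.0620 and -0.0861, and those of other pairs across the groups at -0.0726 to 0.123. No pairing by replicate number was seen, and these few values cannot tell whether libraries share a mouse or culture. With the block Cox4i1 had an adjusted p of 0.997 by edgeR. The nuclear median ranged from -0.00426 without siNC 2 to 0.0548 without siPiezo1 2. With copies summed, Uqcrb turned to 0.00801 and mt-Co2 to -0.0590.

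Signs turned for 24 members whose log2 fold change was at most 0.19 in size, and for 2 of them, Ndufs3 and Uqcrb, only where copies were summed. With single libraries left out, the lowest and highest values were -0.0666 and 0.0113 for Atp5a1, -0.124 and 0.00927 for Atp5b, -0.185 and 0.0876 for Atp5c1, -0.0843 and 0.0857 for Cox5b, -0.0195 and 0.196 for Cox7b, -0.0937 and 0.123 for Cyc1, -0.0731 and 0.0570 for Ndufa2, 0.0148 and 0.158 for Ndufs3, and -0.135 and 0.137 for Ndufv1. They were -0.0156 and 0.185 for Sdha, -0.118 and 0.113 for Sdhb, -0.119 and 0.0759 for Sdhc, -0.140 and -0.0226 for Uqcrb, -0.107 and 0.0425 for Uqcrc1, and -0.0231 and 0.0791 for Uqcrfs1. Among mitochondrial members they were -0.188 and 0.347 for mt-Atp8, -0.0661 and 0.0271 for mt-Co1, -0.140 and 0.377 for mt-Co2, -0.197 and 0.233 for mt-Co3, -0.294 and 0.0162 for mt-Cytb, -0.174 and 0.0324 for mt-Nd1, -0.221 and 0.0883 for mt-Nd2, -0.284 and 0.222 for mt-Nd3, and -0.362 and 0.0814 for mt-Nd4l. With copies summed and siNC 2 left out together, values outside these ranges were 0.0126 for Atp5b, 0.200 for Cox7b, 0.127 for Cyc1, -0.00109 for Ndufs3, 0.0663 for Uqcrb, 0.0196 for mt-Cytb, 0.0358 for mt-Nd1 and 0.0916 for mt-Nd2. The cause of the turns was not tested.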
